A study of Homo sapiens with 6 samples.

Results

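Angiotensinogen, encoded by AGT, is the only source of the angiotensin peptides, and by its fold it belongs to the serpins, a family named for the inhibition of serine proteases. An inhibitory serpin offers a protease an exposed loop as bait. When the loop is cleaved, the serpin changes shape and traps the protease in an irreversible complex, which cells clear through receptors of the low density lipoprotein receptor family. Some members inhibit nothing: angiotensinogen is cleaved to release angiotensin I, and SERPINH1 (HSP47) is a chaperone of collagen in the endoplasmic reticulum. Clade A members such as SERPINA1 (alpha-1-antitrypsin) are mostly secreted by the liver, clade B members stay mainly inside the cell, and clade E members are secreted inhibitors of serine proteases. In the lung, SERPINA1 is best known as the guard against neutrophil elastase.

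The mRNAs of 8 family members were described here: AGT, SERPINA1, SERPINB1, SERPINB6, SERPINB8, SERPINB9, SERPINE2 and SERPINH1. They were picked by symbol from the 40173 genes of the count table, with values of the same comparison known, so that their changes are a description, with counts past a threshold but no p-value for a member. Total RNA came from cells labelled A549, a human lung adenocarcinoma line. They had been transfected with an siRNA against the long noncoding RNA FAM83H-AS1 (silenced) or with a negative control (control), and each group had 3 libraries. Library totals ranged from 9738291 to 17742643 counts, and 21021 to 22202 genes were detected per library. No label says that the replicates were separate cultures, so the p-values given for other genes measure the spread between these libraries only. Levels are in CPM, which are counts per 1000000 counts of a library after TMM normalization.

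The epithelial keratins KRT7, KRT8 and KRT18 were abundant in the control libraries, with means of 1413, 1863 and 1316 CPM, against 954, 1621 and 977 CPM in the silenced libraries, which lay below the control libraries for all 3. KRT7 (log2 fold change -0.57, adjusted p = 0.00116) and KRT18 (-0.43, adjusted p = 0.00266) fell by edgeR's test, and KRT8 (-0.20, adjusted p = 0.121) did not pass. The other epithelial markers were low, KRT19 at 0.488 to 1.21 CPM and EPCAM at 2.82 to 4.49 CPM over all 6 libraries. CDKN2A and MTAP, which lie in a region known to be lost from both chromosomes in A549 cells, had 521 to 955 and 365 to 663 counts. ALDH1A1 and AKR1B10, known for high expression in A549 cells, had 0 to 2 and 9 to 28 counts. These 4 genes were chosen after the data had been seen, and whether the libraries came from another line was not tested. Of 15 markers of blood cells, endothelium, fibroblasts and liver cells, 7 had at most 3 counts in every library, and CD3E, MS4A1 and APOA2 had none. The summed level of the 15 was 154 to 177 CPM in the control libraries and 258 to 296 CPM in the silenced libraries. Most of it was CD68, a lysosomal protein, at 130 and 239 CPM on average, and without CD68 the sums were 31.5 to 36.4 and 33.5 to 43.0 CPM. The largest of the rest was COL1A1, at 27.0 and 31.7 CPM on average. The endothelial markers CDH5 (3.94 and 2.31 CPM) and VWF (1.42 and 1.56 CPM) were detected too. The part of these markers, the keratins included, in the results on serpins was not tested. RNA5-8SP6, a pseudogene of a ribosomal RNA, took 3.22% of control replicate 3, which had the highest total, and 0.241% to 0.448% of the other 5 libraries. Some of the values that moved without this library are given beside the results.

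The target RNA was lower in the silenced cells. FAM83H-AS1 had 141, 185 and 292 counts in control replicates 1 to 3, against 47, 48 and 75 in silenced replicates 1 to 3. That was a log2 fold change (silenced minus control) of -1.70 (SE 0.148, adjusted p = 7.99e-05 by edgeR's quasi-likelihood test over 15250 genes). Here and below, a gene was called when its adjusted p was under 0.05 and its fold change over 2, which applied to 2.14% of the tested genes. With no limit on the fold change, 17.0% of the tested genes had an adjusted p under 0.05. For 36.6%, every silenced library lay on one side of every control library.

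Of the 8 members, 6 had enough counts to be tested. AGT was the 1 member that was called, on the higher side, as were 1.14% of all tested genes, and no member was among the 0.997% called lower. At any fold change, 2 members had an adjusted p under 0.05: AGT, as did 8.75% of all tested genes on the higher side, and SERPINB1, as did 8.27% on the lower side. All silenced libraries lay above the control libraries for AGT and SERPINB8 (19.1% of all tested genes) and below them for SERPINB1 (17.5%), whereas the groups overlapped for SERPINB6, SERPINE2 and SERPINH1. The median log2 fold change of the 6 was 0.08, against -0.00 over all genes tested. Nothing is read from these counts, because this comparison was known when the members were chosen. In bulk RNA, fewer cells that express a gene cannot be told apart from less RNA of that gene per cell.

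**Figure D1:**
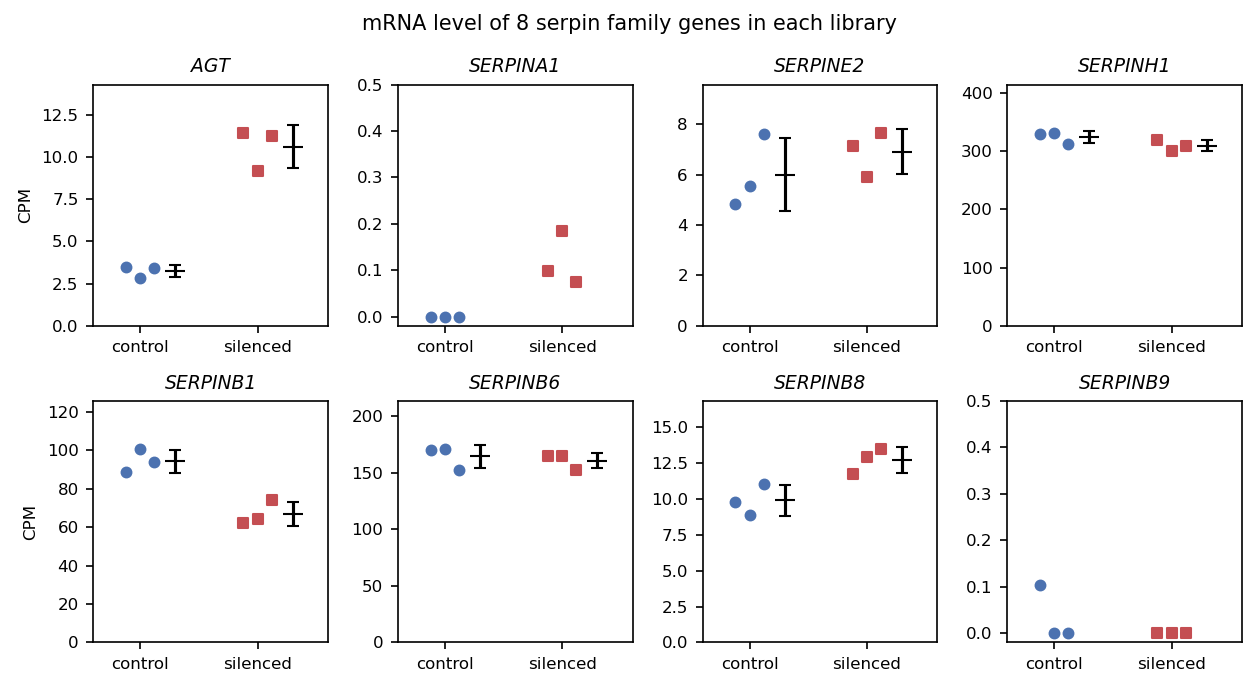
Level of each of the 8 members in CPM (y axis, linear, a scale of its own in each panel) in the 3 control libraries (circles) and the 3 silenced libraries (squares), with the mean and SD (bars) where a gene exceeded 3 counts in a library. AGT is higher in all silenced libraries, at 9.15 to 11.4 CPM against 2.85 to 3.50 CPM, SERPINB1 is lower in all of them, and SERPINB6 and SERPINH1 overlap.

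AGT had the largest change of the 6 tested members. Its counts were 34, 33 and 58 in control replicates 1 to 3, and 117, 99 and 151 in silenced replicates 1 to 3. Scaled to library size, these were 3.50, 2.85 and 3.43 CPM in the control cells, against 11.4, 9.15 and 11.2 CPM in the silenced cells. Every silenced library was above every control library, and the gap between the groups was wider than the range within either. The means were 3.26 ± 0.355 CPM and 10.6 ± 1.26 CPM (SD, n = 3 each), with a fold change of 3.25 and a log2 fold change of 1.70 (SE 0.176, 95% interval 1.31 to 2.08). It stayed between 1.61 and 1.79 in all 13 other fits, which included leaving out each library in turn. At 33 to 151 counts a library, AGT was a low transcript in both groups.

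AGT is on chromosome 1 (minus strand, 230702523 to 230714297, GENCODE 29 on GRCh38), where AL512328.1, a noncoding gene on the same strand, overlaps it. The promoters of the members were taken from the RefSeq table for GRCh38, from 250 bases before to 50 bases after the gene's RefSeq start, and all 8 members had one. That start is not the end of the GENCODE gene: it lies 175 bases inside the gene for AGT, 143 for SERPINB1 and 197 for SERPINH1. It lies 58 bases inside for SERPINA1, 156 for SERPINB8, 598 for SERPINB6 and 7841 for SERPINE2. For SERPINB9 it is at 2903309, just outside the gene. A TATA box, the element that positions transcription about 30 bases downstream, was searched for as TATAAA on both strands. It was in 3264 of 27305 promoters, and in 5.35% of those of tested genes, and among the 8 members in those of AGT, SERPINB9 and SERPINB8. In AGT and SERPINB9 it starts 30 bases before the RefSeq start (230714122 in AGT), and the surroundings are shown with TATAAA in capitals because both genes hold it at the same distance. The AGT stretch is chr1:230714135-230714164 (minus strand) and the SERPINB9 stretch is chr6:2903322-2903351 (minus strand).
AGT: ccacccctcagcTATAAAtagggcatcgtg
SERPINB9: ccgaccctgcggTATAAAagcggtgcctgc
AGT had at least 33 counts in every library, whereas SERPINB9 had a single count over all 6. The motif was added after the results had been seen.

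The genes that process or sense angiotensin peptides were mostly represented by peptidases of broad use. The receptors of angiotensin II were not detectable at this depth, with 0 or 1 counts a library for AGTR1 and 0 for AGTR2. ACE, which makes angiotensin II, had 13 to 22 counts a library, and its log2 fold change was -0.08 (SE 0.312, adjusted p = 0.885). Of 22 genes listed for the angiotensin system, 13 were tested. Of these, 3 rose, 2 fell and 8 did not pass an adjusted p of 0.05 (edgeR), with a median log2 fold change of -0.08. Over all tested genes, 8.75% rose and 8.27% fell at that adjusted p.

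Among those that passed were general peptidases. CTSA (0.31, SE 0.0726, adjusted p = 0.0165) and PRCP (0.27, SE 0.0839, adjusted p = 0.0470), carboxypeptidases of the lysosome, rose on the log2 scale. DPP3 (-0.28, SE 0.0665, adjusted p = 0.0174) and THOP1 (-0.23, SE 0.0722, adjusted p = 0.0474), which degrade small peptides in the cytosol, fell. PRCP and THOP1 each lost an adjusted p under 0.05 in 7 of 13 other fits, and CTSA and DPP3 in 2 each. No gene of the list passed a fold change of 2 in edgeR or in DESeq2. Whichever library was left out, the genes with an adjusted p under 0.05 fell to between 0 and 3, with 0 without silenced replicate 1. Without control replicate 3, only CTSA kept an adjusted p under 0.05.

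AGT is a gene of the acute-phase response in liver cells, where interleukin-6 signals through STAT3 to raise plasma proteins. Of 20 genes listed as regulators of AGT or of acute-phase transcription, 18 were tested. Of these, 8 rose, 0 fell and 10 did not pass an adjusted p of 0.05 (edgeR). At that adjusted p, 8.75% of all tested genes were higher and 8.27% lower. The list was chosen with earlier results of these data known, and a link of its genes to AGT was not tested. The median log2 fold change of the 18 was 0.14. DESeq2 gave an adjusted p under 0.05 for 7 of the 8. The 8 became 4 without control replicate 1, control replicate 2 or silenced replicate 1, and 5 without silenced replicate 2 or silenced replicate 3. Without control replicate 3, only ESR1, HNF4A, IL6, IL6R, JAK1 and STAT3 kept an adjusted p under 0.05.

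HNF4A, a transcription factor of liver and gut epithelium, rose from 20.05, 20.5 and 24.5 CPM in the control libraries to 46.2, 34.6 and 45.0 CPM in the silenced libraries. The groups did not overlap, and the log2 fold change was 0.94 (SE 0.126, adjusted p = 0.000996), or 1.05 without control replicate 3. The cytokine IL6 rose from 5.96, 9.50 and 9.16 CPM to 15.8, 13.5 and 14.3 CPM, again without overlap (0.81, SE 0.169, adjusted p = 0.00975). Its receptor IL6R (0.55, SE 0.0991, adjusted p = 0.00474), the kinase JAK1 (0.46, SE 0.0925, adjusted p = 0.00834), STAT3 (0.26, SE 0.0685, adjusted p = 0.0254) and the shared receptor subunit IL6ST (0.31, SE 0.0846, adjusted p = 0.0290) rose by smaller amounts. STAT3 and IL6ST each lost an adjusted p under 0.05 in 5 of 13 other fits. The 1 gene of the list past a fold change of 2 was ESR1, the estrogen receptor, named after its value was seen. It had 2 to 26 counts a library, a log2 fold change of 1.51 (SE 0.431, adjusted p = 0.0352), and was not called in DESeq2. Its adjusted p was under 0.05 without control replicate 3, and not without any of the other 5 libraries. CEBPB, which binds the promoters of many acute-phase genes, was at 111 and 120 CPM on average, and its groups overlapped.

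The plasma proteins of the response were largely missing from these cells. Of 28 listed, 11 had no counts in any library, 6 were tested, and 2 of the 6 rose while 4 did not pass. Of all tested genes, 8.75% rose at an adjusted p under 0.05, and 1.14% were called higher. CFB, complement factor B, was called: it rose from 51.7, 61.7 and 63.4 CPM to 145, 136 and 137 CPM, a log2 fold change of 1.24 (SE 0.0888, adjusted p = 2.38e-05). FN1, fibronectin, rose by 0.43 (SE 0.103, adjusted p = 0.0174), and did not pass without silenced replicate 1. C3, the most abundant of the 6 in counts, was at 907 and 940 CPM on average, with groups that overlapped. The median log2 fold change of the 6 was 0.24.

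**Figure D2:**
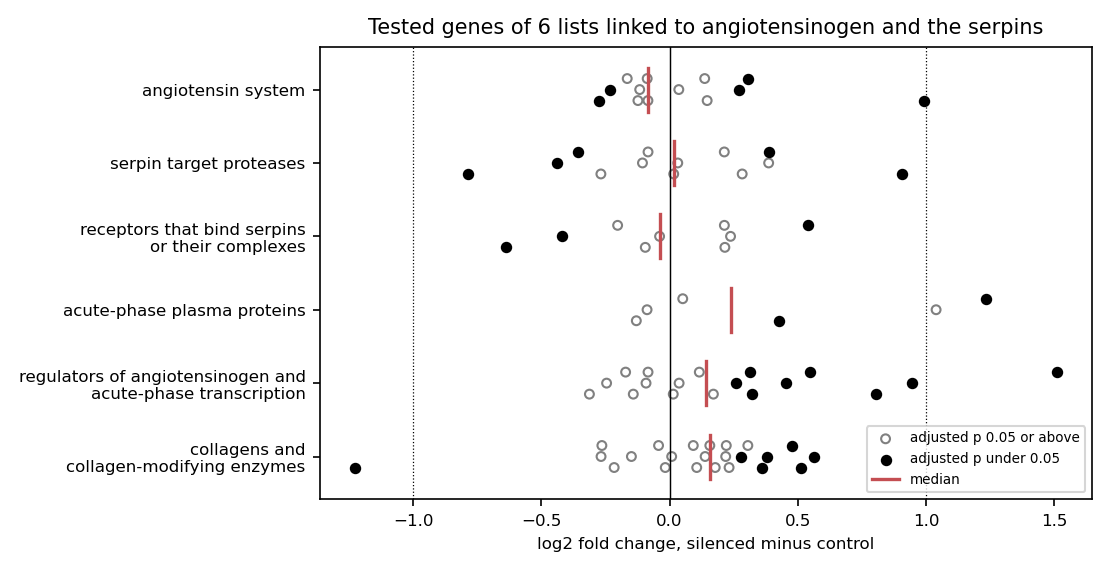
Log2 fold change (x axis, silenced minus control) of each tested gene in 6 lists linked to angiotensinogen and the serpins (rows). Filled points had an adjusted p under 0.05 in edgeR, the red bar is the list's median, and dotted lines mark a fold change of 2. ESR1 (1.51) and CFB (1.24) lie farthest to the right among the filled points, and PPIB (-1.23) farthest to the left.

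SERPINA1, the alpha-1-antitrypsin gene (chromosome 14, 94376747 to 94390693, minus strand), was at the limit of detection. It had no counts in the control libraries and 1, 2 and 1 counts in silenced replicates 1 to 3. All of these lie under a floor of 3 counts a library, which is 0.177 to 0.308 CPM at these depths, so that no fold change is given and a difference was not detectable. SERPINA3, another acute-phase inhibitor of the same clade, had no counts at all.

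SERPINE2, protease nexin-1, is a secreted inhibitor of thrombin, urokinase and trypsin-like proteases that binds to the cell surface. Its counts were 47, 64 and 129 in the control libraries, against 73, 64 and 103 in the silenced libraries. These were 4.83, 5.53 and 7.63 CPM and then 7.13, 5.92 and 7.66 CPM. The highest control library reached the level of the highest silenced library, and the groups overlapped. Its log2 fold change was 0.18 (SE 0.203, 95% interval -0.26 to 0.63), the widest interval of the 6 members. A control library set its size: it was 0.41 without control replicate 3 and 0.06 without control replicate 1. SERPINE2 is on chromosome 2 (minus strand, 223975112 to 224039319).

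SERPINB1, SERPINB6, SERPINB8 and SERPINB9 are clade B serpins, which lack a classical signal peptide and protect the cell from proteases of its own granules and lysosomes or from those it takes up. SERPINB1 inhibits the neutrophil proteases elastase, cathepsin G and proteinase 3. It had 862, 1163 and 1587 counts in control replicates 1 to 3 and 637, 693 and 996 in silenced replicates 1 to 3. The levels were 88.6, 100.4 and 93.8 CPM in the control cells, against 62.2, 64.1 and 74.0 CPM in the silenced cells. The silenced libraries were all below the control libraries, with silenced replicate 3 the nearest to them. The means were 94.3 ± 5.93 and 66.8 ± 6.36 CPM (SD, n = 3 each), a fall of 29.1%. On the log2 scale, the change was -0.50 (SE 0.0885, 95% interval -0.69 to -0.30), and it was between -0.58 and -0.45 in the 13 other fits. It did not reach a fold change of 2 in any of them.

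SERPINB6, which inhibits cathepsin G and trypsin-like proteases, is the other abundant gene of the 4. Its levels were 170, 171 and 153 CPM in the control libraries, against 165, 165 and 153 CPM in the silenced libraries. Replicate 3 was the lowest library of both groups, and the groups overlapped. The log2 fold change was -0.03 (SE 0.0749, 95% interval -0.20 to 0.13), and -0.09 without control replicate 3. The interval rests on the spread between these libraries only.

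SERPINB8, an inhibitor of furin and other subtilisin-like and trypsin-like proteases, had slightly higher levels in all silenced libraries. It had 95, 103 and 187 counts in the control libraries, against 120, 140 and 181 in the silenced libraries. After scaling these were 9.77, 8.90 and 11.1 CPM and then 11.7, 12.9 and 13.4 CPM. The lowest silenced library stood just above the highest control library. The log2 fold change was 0.35 (SE 0.134, 95% interval 0.06 to 0.65), with 0.28 to 0.45 in the other fits and 0.45 without control replicate 3. DESeq2 gave 0.35 with a wider SE of 0.192, and SERPINB8 was not among the members with an adjusted p under 0.05 in any fit. SERPINB8 is on chromosome 18 (plus strand, 63969925 to 64019779), overlapped on the same strand by HMSD, which had 8 to 17 counts, and on the other strand by the antisense gene AC009802.1. Strand handling is not stated in the sources used here, so reads of overlapping genes may be shared.

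SERPINB9, the inhibitor of granzyme B with which lymphocytes and some tumours shield themselves, had 1 count in control replicate 1 and 0 in the other 5 libraries. That is under the floor of 3 counts a library. SERPINB1, SERPINB9 and SERPINB6 lie next to one another on the minus strand of chromosome 6, at 2832332 to 2842006, 2887266 to 2903280 and 2948159 to 2972165, all within 139.8 kb. In this cluster the outer genes had 637 to 1587 and 1658 to 2583 counts a library, and the gene between them had almost none.

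The promoters of the cluster were searched for an NF-kappaB type motif, GGGA and CC with any 4 bases between, on both strands, which 25.1% of all promoters hold. SERPINB1 and SERPINB9 had 1 match each, SERPINB6 had none, and SERPINH1 had 3. No member had the interferon response type motif, 2 copies of GAAA with any 2 bases between, which 3.65% of promoters hold. The match in SERPINB1 starts 85 bases before the RefSeq start (2841863), within the GENCODE gene, at chr6:2841929-2841958 (minus strand), with the motif in capitals.
SERPINB1: cgcagtcaccGGGAAGGGCCgccgccccgc
The word CCAATAA, taken up because mRNAs that hold it were already known to be lower in these silenced libraries, was in the 3′-UTR of 12.3% of 11552 tested mRNAs. Among the 8 members, it was found only in SERPINB1, starting at base 87 of the 1276 bases in ENST00000380739.5. The site is shown with the word in capitals, as SERPINB1 was the member that was lower in all silenced libraries.
SERPINB1 3′-UTR: ttatatctttaCCAATAAaaccactgttca
The median log2 fold change was -0.09 for mRNAs with the word and 0.01 for those without. This pattern was known beforehand and gives no independent support, and a match is no sign that the site is used.

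**Figure D3:**
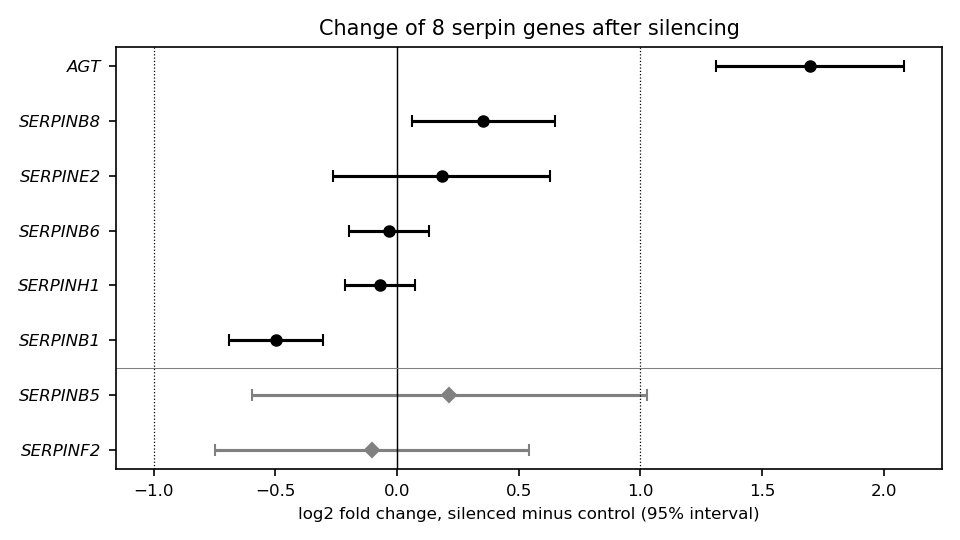
Log2 fold change (x axis, silenced minus control) with its 95% interval for the 6 tested members (black circles, above the line) and for SERPINB5 and SERPINF2 (grey diamonds, below the line), with dotted lines at a fold change of 2. Of these 8 genes, only AGT, SERPINB8 and SERPINB1 have intervals that leave out 0, and only that of AGT lies wholly beyond a fold change of 2. The intervals are not adjusted for the number of genes, and SERPINB8 had no adjusted p under 0.05 in any fit. The members were picked with this comparison known, so that the intervals are a description.

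SERPINH1, the collagen chaperone HSP47, was the member with the most counts. Its counts ranged from 3209 to 5287, with 330, 332 and 313 CPM in the control libraries, against 319, 300 and 309 CPM in the silenced libraries. The groups overlapped, with means of 325 ± 10.6 and 309 ± 9.56 CPM (SD, n = 3 each). Its log2 fold change was -0.07 (SE 0.0655, 95% interval -0.21 to 0.07), below 0 in all 13 other fits. SERPINH1 is on chromosome 11 (plus strand, 75562056 to 75572783). Its pseudogene SERPINH1P1 shares a stretch of 74 identical bases with it, so that some reads may be split between them. The pseudogene had 20 to 35 counts, so few reads were assigned to it. Reads dropped for matching both genes would not show in that count.

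HSP47 is a heat shock protein, and the promoter was searched for a heat shock type motif on both strands: GAA, TTC and GAA, or TTC, GAA and TTC, each with any 2 bases between. Of all promoters, 0.487% hold it, and SERPINH1 was the only one of the 8 members. The match starts 76 bases before the RefSeq start (75562253), within the GENCODE gene, at chr11:75562169-75562198 (plus strand), and is in capitals.
SERPINH1: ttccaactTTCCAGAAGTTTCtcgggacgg
A hypoxia or E-box core, ACGTG on both strands, was in 21.6% of promoters and in those of SERPINB6, SERPINB8, SERPINE2 and SERPINH1. For SERPINE2, the sequence searched surrounds a RefSeq start 7841 bases inside the GENCODE gene.

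Collagens are the clients of SERPINH1, and several enzymes modify them in the same compartment. Of 28 symbols listed for collagens and collagen-modifying enzymes, 26 were in the table. The others, P3H1 and P3H2, are newer names of LEPRE1 and LEPREL1, which were in it. Of the 26, 23 were tested, of which 6 rose, 1 fell and 16 did not pass an adjusted p of 0.05 (edgeR). At that adjusted p, 8.75% of all tested genes rose and 8.27% fell. The median log2 fold change was 0.16. PPIB (cyclophilin B), a prolyl isomerase that acts on collagen there, fell from 497, 502 and 457 CPM to 205, 201 and 216 CPM. Every silenced library was below every control library, and the log2 fold change was -1.23 (SE 0.0701, adjusted p = 6.59e-06), the only called gene of the list. The basement membrane collagen COL4A1 rose by 0.48 (SE 0.0808, adjusted p = 0.00339) and COL4A5 by 0.36 (SE 0.0756, adjusted p = 0.00975). P4HA2, a prolyl hydroxylase, rose by 0.56 (SE 0.101, adjusted p = 0.00467), and PLOD2, a lysyl hydroxylase, by 0.51 (SE 0.101, adjusted p = 0.00706). FKBP10, another prolyl isomerase, rose by 0.28 (SE 0.0727, adjusted p = 0.0248). It lost an adjusted p under 0.05 in 4 of 13 other fits, among them the fit without control replicate 3. PPIB thus moved against the other genes of the list that passed.

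Per kilobase of exon, the members spanned a wide range in the control cells. SERPINH1 was highest, with a mean of 66.8 CPM per kb, followed by SERPINB1 at 36.0 (33.8 to 38.4) and SERPINB6 at 22.9 (21.3 to 23.8). A gap separated these from SERPINB8 at 2.05 (1.84 to 2.29), SERPINE2 at 1.90 (1.53 to 2.42) and AGT at 1.42 (1.24 to 1.53). SERPINB8 and SERPINE2 overlapped between libraries, and the lowest library of SERPINE2 all but met the highest library of AGT. With the length of the principal transcript in place of all exons, a choice made after seeing the data, the order was the same. In the silenced cells AGT was at 4.63 CPM per kb, above the means of SERPINB8 (2.63) and SERPINE2 (2.19).

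**Figure D4:**
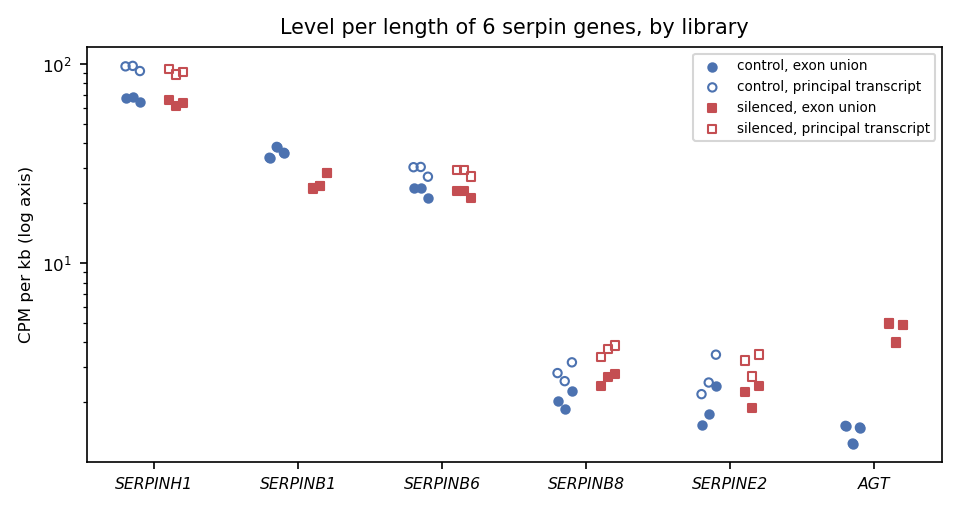
Level per length (y axis, CPM per kb, log axis) of 6 members in each library, with control libraries as circles and silenced libraries as squares. Filled points use the union of exons and open points the principal transcript, which coincide where the lengths are equal. SERPINH1, SERPINB1 and SERPINB6 lie above 20 CPM per kb, and AGT moves from the lowest place in the control cells to above SERPINB8 and SERPINE2 in the silenced cells.

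Outside the 8 members, the table held 27 other serpin genes, of which 15 had no counts in any library, 6 had at most 3 counts, 3 had more counts but too few to be tested, and 3 were tested. SERPINB5 (maspin), at 9 to 26 counts, had a log2 fold change of 0.21 (SE 0.370, adjusted p = 0.730). SERPINF2 (alpha-2-antiplasmin), at 25 to 41 counts, had -0.10 (SE 0.293, adjusted p = 0.846), and its groups overlapped as did those of SERPINB5.

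Of all counts on serpin genes, AGT held 0.379% to 0.482% in the control libraries and 1.23% to 1.39% in the silenced libraries, ranges that did not overlap. Longer transcripts collect more counts, so this share compares libraries rather than genes.

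Across the 6 libraries, Pearson's r of log2(CPM + 1) with AGT was 0.87 for SERPINB8, 0.50 for SERPINE2, -0.30 for SERPINB6, -0.64 for SERPINH1 and -0.93 for SERPINB1. All of these points share the division into 2 groups, so that r mostly describes the difference between groups. Of 12130 tested genes averaging 50 counts or more a library, RNF11 (0.998), ECM1, SLC6A6 and SH2D2A (0.997 each) and TTLL6 (0.996) were most like AGT. ECM1, an extracellular matrix protein, went from 52.8 ± 4.18 to 115 ± 4.68 CPM, and SLC6A6, the taurine transporter, from 152 ± 11.3 to 253 ± 17.5 CPM (SD, n = 3 each). The most opposite were ZC3H15 (-0.999), TMC5 (-0.997), PARVB (-0.996), PHF14 (-0.995) and LOC100506055 (-0.995).

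The proteases that serpins inhibit were divided. Of 26 listed, 13 were tested. Of these, 2 rose, 3 fell and 8 did not pass an adjusted p of 0.05 (edgeR), with a median log2 fold change of 0.02. Over all tested genes, 8.75% rose and 8.27% fell at that adjusted p. HTRA1, a secreted serine protease, fell from 55.1, 46.1 and 50.4 CPM to 26.4, 28.0 and 33.2 CPM (-0.78, SE 0.105, adjusted p = 0.00102). CTSS, the lysosomal protease cathepsin S, rose from 14.7, 15.03 and 19.1 CPM to 27.4, 33.9 and 30.8 CPM (0.91, SE 0.126, adjusted p = 0.00122). Neither gene's groups overlapped. CTSB (-0.36, SE 0.0731, adjusted p = 0.00883) and CTSH (-0.44, SE 0.133, adjusted p = 0.0430), other cathepsins, fell, and the apoptotic protease CASP8 (0.39, SE 0.0878, adjusted p = 0.0133) rose. CTSH lost an adjusted p under 0.05 in 7 of 13 other fits. CTSB and CASP8 lost it without silenced replicate 1, which left 3 of the 5.

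Among 10 receptors that bind serpins or their complexes with proteases, 9 were tested. Of these, 1 rose, 2 fell and 6 did not pass an adjusted p of 0.05, with a median log2 fold change of -0.04. The shares over all tested genes were 8.75% higher and 8.27% lower. LRP1, the main receptor for such complexes, rose by 0.54 on the log2 scale (SE 0.133, adjusted p = 0.0197). Its levels were 344, 326 and 391 CPM in the control libraries, against 561, 392 and 589 CPM in the silenced libraries. Silenced replicate 2 was thus almost level with control replicate 3. LRP1 lost an adjusted p under 0.05 in 4 of 13 other fits. The heparan sulfate proteoglycan SDC1 fell by 0.64 on the log2 scale (SE 0.0914, adjusted p = 0.00142), and LRP8 by 0.42 (SE 0.0732, adjusted p = 0.00404). In neither the proteases nor the receptors did any gene pass a fold change of 2 in edgeR or DESeq2. CTSS passed it without control replicate 3, at a log2 fold change of 1.05.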

How the data were processed

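Total RNA of 3 control and 3 FAM83H-AS1-silenced samples was sequenced with an Ion Proton kit. The authors counted reads per gene with MapSplice, and the deposited values are these raw counts without normalization, on GRCh37 per the submitters' processing notes. Annotation, strand and the treatment of reads with several matches are not given in the sources used here, so genes that share sequence or overlap may share reads. Table columns were matched to groups by name.

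Counts were tested with edgeR 4.0.16 in R 4.3.3 (filterByExpr, TMM, quasi-likelihood F test) over 15250 genes with Benjamini-Hochberg adjustment, at an adjusted p of 0.05 and, for calls, a fold change of 2. Intervals of fold changes are 95%. TMM factors were 0.955 to 1.02. Totals of 9738291 to 17742643 counts leave genes at 3 counts or fewer without a fold change. Replicates differed by more than counting noise (chi-square per degree of freedom 3.92 to 26.8). The test was checked on simulated counts, with mean levels from these libraries and a dispersion (spread between replicates) of 0.0108 for every gene. That check does not cover genes or libraries with another spread. Alternatives were DESeq2 1.42.0, RLE size factors, library size only, other count filters, the replicate number as a block, mRNA rows only, each library left out, and an adjusted p under 0.01.

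The members and the lists were chosen with earlier results of these data known. Named were all members, every other tested serpin, and up to 6 genes per list with an adjusted p under 0.05, smallest first. Also named were some genes of the angiotensin system whatever their value (here ACE, AGTR1 and AGTR2), and the 5 genes most like and most opposite to AGT. Of the lists, ESR1, CEBPB, C3 and SERPINA3 were named outside this rule. Gene positions, lengths and 3′-UTRs are from GENCODE 29 on GRCh38, whereas the counts rest on GRCh37, so that they were joined by symbol only. Promoters are from RefSeq. Protein sequences were not analysed here, and some genes that this rule names are not reported here. Python 3.11.15, pandas 2.3.3, numpy 2.4.6, scipy 1.17.1 and matplotlib 3.10.9 were used for summaries and plots.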

Additional observations from a re-analysis of the deposited data

How the results depend on the processing

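The tested members kept their direction in all 13 other fits, except that SERPINB6 was just above 0 in 2 of them, and FAM83H-AS1 was called in all 12 fits it entered. For the lists, the number of genes past a threshold varied between fits. A stricter adjusted p can only keep or lower such a number. At an adjusted p under 0.01, the genes past it were 0 (against 5) for the angiotensin system, 3 (5) for the proteases, 1 (2) for the acute-phase proteins and 4 (8) for the regulators, of which 0 were called (1). DESeq2 gave 3 genes of the angiotensin system and 0 called regulators, as did the filter of at least 10 counts in every library for the latter, in which ESR1 was left out. Scaling by library size only gave 1 called gene of the angiotensin system (against 0). Leaving out each library gave 0 to 3 genes of the angiotensin system with an adjusted p under 0.05 and 0 to 1 called, 3 to 5 proteases and 0 to 1 called, 1 to 2 acute-phase proteins, and 4 to 6 regulators with 0 to 2 called. SERPINF2 ranged from -0.33 to 0.21, the latter without control replicate 1. With Spearman's rho, PARVB was at -0.89 with AGT.

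Same-numbered libraries of the groups deviated together only weakly (r of 0.124, 0.149 and 0.067), so the numbers were not taken as pairs, although each library correlated best with its own number. With the replicate block, the called genes went from 326 to 380 and those with an adjusted p under 0.05 from 2595 to 3449. The block gave 5 receptors (against 3) and 12 collagen genes (against 7) with an adjusted p under 0.05, and changed neither count of members. The causes of these changes were not tested. At these totals, SERPINA1 and SERPINB9 cannot be compared between the groups.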
